A study of Mus musculus with 2 samples.

Results

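Mir143, Mir145a and Mir145b were followed in C2C12 myotubes as 3 named genes of the 2202 miRNA genes in the count tables. They were matched by Ensembl identifier to their GENCODE M21 names, by a rule that uses no measured value. Earlier results of these data were known when they were chosen. C2C12 is a myoblast line from crush-injured thigh muscle of C3H mice, whose cells fuse into multinucleated myotubes when differentiated. The series holds 1 group, C2C12 cells differentiated for 72 h, as 2 small RNA libraries labelled biological replicates 1 and 2, with no added agent or genetic change in the labels. Undifferentiated cells and smooth muscle were not analysed here. Both libraries come from 1 cell line, so p-values between them measure counting error and not a difference between conditions.

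In mammals miR-143 and miR-145 are processed from a shared primary transcript and are best known from vascular and visceral smooth muscle, where serum response factor and its co-activator myocardin switch the locus on. Together they favour the contractile state of smooth muscle cells over the proliferating, synthetic state. Each hairpin is cut separately into its own mature miRNA. The word smooth-muscle describes where the locus is best known and not the cells sequenced here.

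On the mm10 assembly Mir143 (ENSMUSG00000065445.3) lies on chromosome 18 from 61649196 to 61649258 on the minus strand. Mir145a (ENSMUSG00000065592.2) lies on the same strand from 61647825 to 61647894, downstream of Mir143 with 1301 bases between the hairpins. Neither overlaps any other annotated gene, exonic or intronic. The long non-coding RNA gene Carmn, which is known as a smooth-muscle-enriched transcript, runs on the same strand and ends 366 bases upstream of Mir143. Bvht (Braveheart), a mouse long non-coding RNA known from cardiac commitment of embryonic stem cells, lies on the opposite strand 352 bases from Mir145a. Mir145b (ENSMUSG00000098366.1) is not part of this locus. It lies on chromosome 18 from 69022199 to 69022273 on the minus strand, 7372940 bases from Mir143, and its nearest annotated neighbours are 4930546C10Rik and Gm23536. The locus and its neighbours are drawn to scale in the map of annotated genes.

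**Figure D1:**
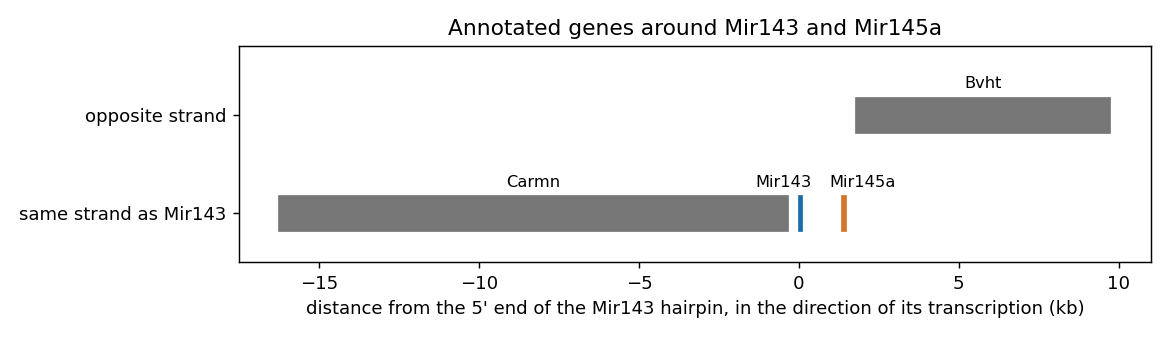
Annotated genes around Mir143 and Mir145a, drawn to scale. The x axis is the distance in kb from the 5′ end of the Mir143 hairpin along its direction of transcription, and the 2 rows are the strands. Carmn ends 366 bases before Mir143, Mir145a follows 1301 bases after it, and Bvht is on the opposite strand.

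Replicate 1 held 7581366 reads on the gene strand of miRNA genes and replicate 2 held 9865298, and 1 read was worth 0.132 and 0.101 CPM (counts per 1000000 miRNA-gene reads). All levels below are CPM, and the tables do not tell the 5′ arm of a hairpin from the 3′ arm. Of the markers of skeletal muscle, Mir206 accounted for 34.1% of these reads in replicate 1 and 41.7% in replicate 2.

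Mir143 was one of the most abundant miRNA genes of the myotubes. It had 351799 reads (46403 CPM) in replicate 1 and 244123 reads (24746 CPM) in replicate 2. It ranked 5th in replicate 1 and 7th in replicate 2, and its mean was 35574 ± 15314 CPM (SD, n = 2). The exact Clopper-Pearson 95% intervals, which cover counting error only, ran from 46253 to 46553 CPM and from 24649 to 24843 CPM, so nearly all of the SD lies between the libraries and not in the counting. Only Mir206, Mir378a and Mir22 lay above Mir143 with no overlap of the 2 values per gene. Another 6 genes overlapped its range across the libraries, among them Mir21a at 82317 and 39501 CPM, Mir99a at 29486 and 27699 CPM and Mir23a at 29161 and 24031 CPM in replicates 1 and 2. Compared within each library, Mir21a was above Mir143 in both, Mir23a, Mirlet7i and Mir322 were below it in both, and Mir99a and Mirlet7b were below it in replicate 1 and above it in replicate 2. The order of Mir143 against those last 2 genes differed between the libraries. Mir206, the most abundant gene, exceeded Mir143 7.35-fold in replicate 1 and 16.8-fold in replicate 2.

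Mir145a was well detected but far lower. It had 14383 reads (1897 CPM) in replicate 1 and 24557 reads (2489 CPM) in replicate 2, with a mean of 2193 ± 419 CPM (SD, n = 2). Its rank was 45th in replicate 1 and 31st in replicate 2. A total of 27 genes lay wholly above it, and 19 genes overlapped its range. Its closest neighbours by mean level were Mir93, Mirlet7d and Mir28a above and Mir298, Mir106b and Mir425 below, from 2251 ± 324 CPM for Mir93 to 1684 ± 132 CPM for Mir425 (SD, n = 2). Of these 6, only Mir425 did not overlap Mir145a in its values.

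Mir145b had no read in either library on either strand. The limit taken for a count of 0 (3 counts per library) is 0.396 CPM for replicate 1 and 0.304 CPM for replicate 2. Set at this limit, Mir145b would be 4794-fold lower than Mir145a in replicate 1 and 8185-fold lower in replicate 2. These folds are not strict minima. The exact Clopper-Pearson upper limits for Mir145b were higher than the limit taken, at 0.487 CPM in replicate 1 and 0.374 CPM in replicate 2. Multimapping reads are also left out of these levels. In total 1494 of the 2202 genes had no read, so that an unread gene is the common case in these tables.

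**Figure D2:**
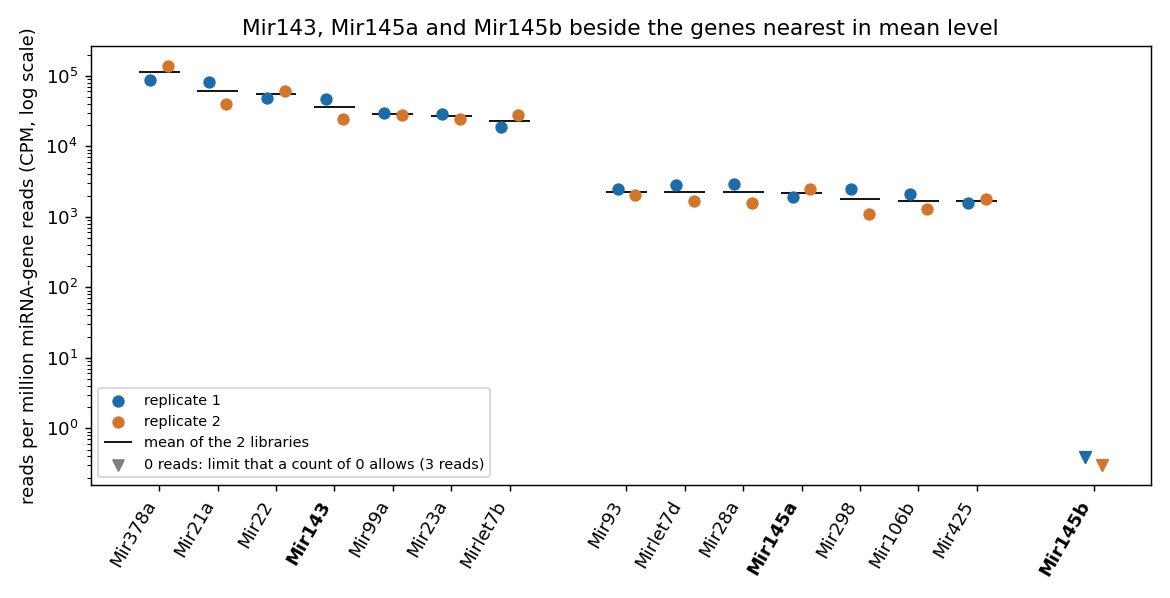
Level of Mir143, Mir145a and Mir145b (bold) and of the 3 genes just above and just below Mir143 and Mir145a by mean level. The y axis is CPM on a log scale, points are the 2 libraries, and lines are their means. Mir143 sits among genes of 18538 to 138481 CPM, Mir145a among genes of 1085 to 2904 CPM, and Mir145b, with 0 reads, is drawn at the limit of 3 counts.

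Reads from the locus were almost wholly on the gene strand. Mir143 had 0 reads on the opposite strand in both libraries, and Mir145a had 0 in replicate 1 and 1 in replicate 2. Over all miRNA genes, opposite-strand reads came to 8.91% and 13.1% of the reads on either strand in replicates 1 and 2. These shares are no background for a gene without an overlapping partner. The opposite-strand totals were 741929 and 1485385 reads, and reads ambiguous with strand ignored were nearly as many, 741854 and 1485288. Mir378a, with 663482 and 1366156 reads, lies inside Gm25301, a gene annotated on the other strand. No gene is annotated on the strand opposite Mir143 or Mir145a, and the count that ignores strand gave the same reads for them, apart from that 1 read.

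Sequence sharing with other miRNA hairpins was short for Mir143 and Mir145a. The Mir143 hairpin of 63 bases shared at most 11 bases in a row with any other annotated miRNA hairpin. The Mir145a hairpin of 70 bases shared 17 bases in a row with Mir145b and 15 with Mir6402, and both of those genes had 0 reads in both libraries. An exact match longer than 17 bases thus tells Mir145a from Mir145b. Multimapping reads have their own line in the tables (22.0% and 17.9% of all reads in replicates 1 and 2), and the part of miR-145 sequences among them was not tested. For comparison, 1087 of the 2202 hairpins shared a run of 20 bases or more with another.

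Within the locus Mir143 exceeded Mir145a in both libraries, and by an unequal factor. The ratio of their reads was 24.5 in replicate 1 and 9.94 in replicate 2, or 3.96 ± 0.92 on the log2 scale (SD, n = 2, pseudocount of 0.5 reads). Mir143 made up 96.1% of the reads of the pair in replicate 1 (95% exact Clopper-Pearson interval 96.01% to 96.13%) and 90.9% in replicate 2 (90.75% to 90.97%). The ratio was 2.46 times larger in replicate 1 than in replicate 2, with a 95% counting interval of 2.41 to 2.51. This ratio does not depend on how the libraries are scaled. The ratio itself was given no test, since the smallest two-sided p that an exact paired permutation of 2 libraries allows is 0.5. Together the pair accounted for 4.83% of the reads of miRNA genes in replicate 1, and for 2.72% of them in replicate 2.

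Mir143 and Mir145a moved in opposite directions between the libraries. After TMM scaling, Mir143 was 1.84-fold higher in replicate 1 (log2 ratio 0.88), and the exact two-sided binomial test called it, with an adjusted p too small for the software to represent. Mir145a was 1.34-fold lower in replicate 1 (log2 ratio -0.42; exact binomial test, Benjamini-Hochberg adjusted p = 5.92e-174). Mir145b, with no read, was not tested. At these depths the test calls most abundant genes: 55.7% of the 415 genes tested were called, 30.4% higher in replicate 1 and 25.3% higher in replicate 2. A call is therefore no mark of these genes.

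The size of the difference lay within the spread of other genes, for Mir143 in its upper part. Among 274 genes with 2 CPM or more in both libraries, 76 (27.7%) lay further apart between the libraries than Mir143 and 159 (58.0%) lay further apart than Mir145a. The median size of the difference was 0.52 on the log2 scale, and the biological coefficient of variation over these genes was 0.426 (edgeR). Among the 123 genes with 100 CPM or more in both libraries the median was 0.53. Of these, 28 (22.8%) lay further apart than Mir143 and 71 (57.7%) further apart than Mir145a. Leaving out the reads of Mir206, whose share differed between the libraries, Mir143 stood at 70397 CPM in replicate 1 and 42430 CPM in replicate 2, and Mir145a at 2878 and 4268 CPM, so both kept their direction.

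**Figure D3:**
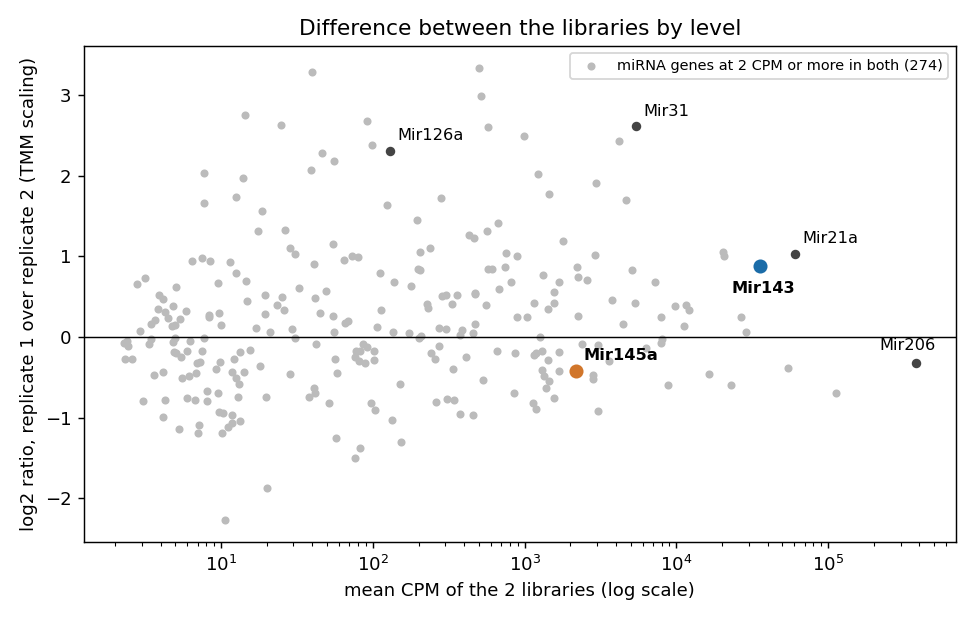
Difference between the libraries against level for the 274 genes with 2 CPM or more in both. The x axis is the mean CPM on a log scale and the y axis is the log2 ratio of replicate 1 over replicate 2 after TMM scaling. Mir143 (0.88) lies above 0 and Mir145a (-0.42) below it, both inside the cloud of other genes.

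The genes whose difference between the libraries was nearest that of Mir143, among 122 other genes with 100 CPM or more in both, were Mir18 (log2 ratio 0.87), Mir28a (0.87) and Mir29c (0.85). Mir18 belongs to the Mir17 cluster, which is linked to proliferation, and it is also a member of the contractile list described below. Mir29c belongs to a family known to target collagens. Those nearest to Mir145a were Mir320 (-0.42), Mir125a (-0.41) and Mir301 (-0.39). With 2 libraries this likeness rests on a single ratio per gene, and it describes these libraries only.

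Neighbouring miRNA genes gave a scale for the gap within the pair. The tables held 55 pairs of adjacent miRNA genes on 1 strand with starts within 10 kb and 2 CPM or more for both genes in both libraries. By mean CPM, Mir143 and Mir145a were 4.02 apart on the log2 scale, against a median of 2.93 over the pairs, and 17 of 55 pairs were further apart. Many of those pairs hold a gene that shares a run of 20 bases or more with another hairpin, and how far multimapping lowers such a gene was not tested. Among the 30 pairs with no such gene the median was 1.60 and 4 pairs were further apart: Mir130b over Mir301b, Mir18 over Mir19a, Mir20a over Mir19a, and Mir322 over Mir503. Mir143 and Mir145a thus stood in the upper part of the range without being at its end.

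The shift of the ratio between the libraries was also within the range of other pairs. For Mir143 and Mir145a it was 1.30 on the log2 scale, against a median size of 0.63 over the 55 pairs, and 14 pairs shifted more. Of 44 pairs in which both genes passed the binomial test, 17, this one included, moved in opposite directions and 27 in the same direction. Others that moved apart were Mir206 and Mir133b, Mir351 and Mir503, and Mirlet7e and Mir125a.

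The pairs without related hairpins that stood nearest in gap were Mir322 over Mir503 (4.14 apart on the log2 scale) and Mir34c over Mir34b (3.45 apart). Both pairs are clusters of related miRNAs, and their mature forms are shown because their likeness contrasts with Mir143 and Mir145a. The sequences are from RefSeq (GRCm38.p6), written 5′ to 3′, with the seed (bases 2 to 8, which pair with target mRNAs) in capitals.
mmu-miR-322-5p: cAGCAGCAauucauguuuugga
mmu-miR-503-5p: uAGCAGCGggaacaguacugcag
mmu-miR-34c-3p: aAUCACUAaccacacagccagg
mmu-miR-34b-3p: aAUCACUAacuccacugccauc

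The Mir322 and Mir503 hairpins share 10 bases in a row, and the seeds shown for them differ in the last base. The Mir34c and Mir34b hairpins share 11 bases in a row and the same 3p seed. Their 5p seeds were not compared, because the sequences used held no 5p form of Mir34c. The Mir143 and Mir145a hairpins shared no more than 5 bases in a row, which is shorter than a seed, so the pair cannot share a seed. Mir322 had 27578 and 13017 CPM and Mir503 had 1330 and 969 CPM in replicates 1 and 2, both higher in replicate 1. Mir34c had 7130 and 1298 CPM and Mir34b had 402 and 370 CPM, again both higher in replicate 1. Mir143 and Mir145a were higher in different libraries, as were Mir351 and Mir503 of the same cluster as Mir322.

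**Figure D4:**
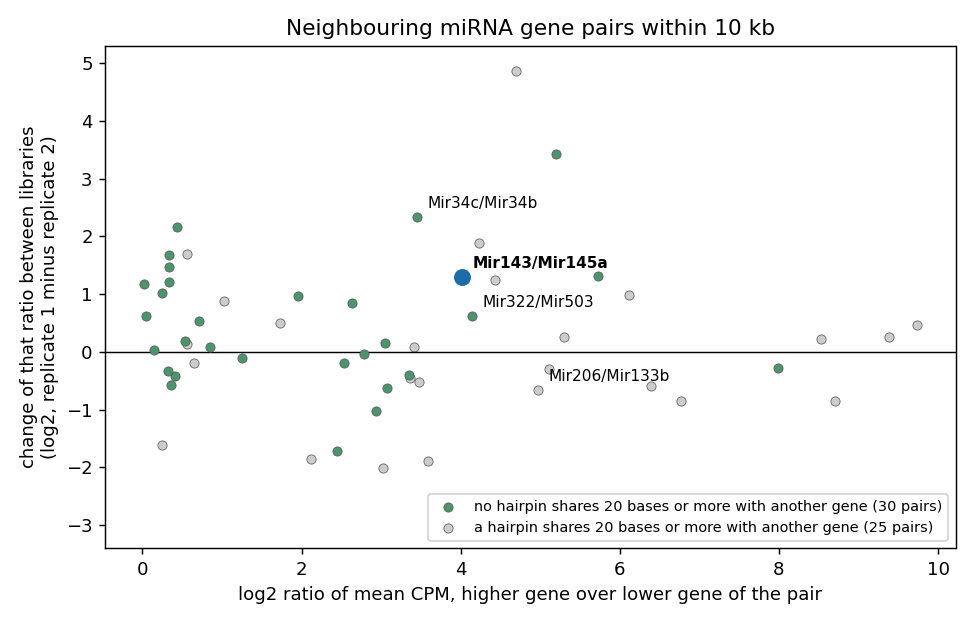
The 55 pairs of neighbouring miRNA genes within 10 kb. The x axis is the log2 ratio of mean CPM of the higher over the lower gene, and the y axis is the change of that ratio between the libraries (replicate 1 minus replicate 2). Mir143 over Mir145a stands at 4.02 and 1.30, with pairs on all sides of it.

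Other miRNAs known from smooth muscle were set beside the locus as 2 lists. Of 13 miRNA genes associated with the contractile state, 8 reached 2 CPM in both libraries. The median over all 13, those below 2 CPM included, was 11.5 CPM, against 0 CPM over all 2202 genes. Over the 274 genes at 2 CPM or more in both it was 90.3 CPM, but those were filtered by level and the 13 were not. The list was led by Mir322 at 20298 ± 10297 CPM, Mir133b at 12089 ± 2151 CPM, Mir23b at 11582 ± 2402 CPM and Mir100 at 8104 ± 43.7 CPM (SD, n = 2), all below the mean of Mir143, although the range of Mir322 overlapped it. Mir133b is a skeletal-muscle miRNA in its own right, and Mir322 is known to rise in differentiating myoblasts. Mir490 had no read and Mir204 had 1 and 10 reads. Between the libraries 9 of 12 tested members were called, 7 of them higher in replicate 1 as Mir143 was, and 2 higher in replicate 2. Over all genes tested 55.7% were called, 30.4% and 25.3% by direction. With 100 reads or more in total, 205 of 240 genes were called, 117 higher in replicate 1 and 88 higher in replicate 2. A call is therefore no mark of this list.

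Of 10 miRNA genes associated with the synthetic or proliferating state, 9 reached 2 CPM in both libraries. The median over all 10 was 335 CPM. The list was led by Mir21a at 60909 ± 30275 CPM, Mir31 at 5419 ± 5545 CPM, Mir24-2 at 3046 ± 1281 CPM and Mir221 at 2905 ± 1429 CPM (SD, n = 2). Mir21a, a miRNA induced by growth and injury signals, was thus above Mir143 in each library. Between the libraries 8 of 10 members were called, 5 higher in replicate 1 and 3 higher in replicate 2. Over all genes tested 55.7% were called, 30.4% and 25.3% by direction, and with 100 reads or more in total 205 of 240 were called. Summed, the synthetic list had 98503 CPM in replicate 1 and 47566 CPM in replicate 2, and the contractile list 63926 and 42228 CPM. Mir21a alone held 82317 and 39501 CPM of the synthetic sums, and Mir322 held 27578 and 13017 CPM of the contractile sums. The sums therefore do not describe a shift of each list as a whole. The Mir1a, Mir133a, Mir133b, Mir23b, Mir24, Mir26a and Mir146 genes of the lists share runs of 20 bases or more with other hairpins, and the part of multimapping in their values was not tested.

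Markers of other cell types did not share 1 direction with Mir143. Of 7 fibroblast and mesenchymal markers, 6 reached 2 CPM in both libraries and Mir10b was at 0. Their sum was 132585 CPM in replicate 1 and 104118 CPM in replicate 2, with 3 members higher in each library, Mir21a among those higher in replicate 1 and Mir22 and Mir214 among those higher in replicate 2. The endothelial markers Mir126a and Mir126b summed to 219 and 44.5 CPM, carried by Mir126a, which like Mir143 was higher in replicate 1. The 5 blood markers summed to 105 and 183 CPM. All 4 that were tested were called, against 55.7% called over all genes, 30.4% higher in replicate 1 and 25.3% higher in replicate 2. Mir142 (89.0 and 178 CPM), which made up most of the sum, and Mir150 were higher in replicate 2. Mir451a (11.9 and 3.65 CPM) and Mir144 (3.43 and 0.710 CPM) were higher in replicate 1. The 8 epithelial markers summed to 10.8 and 8.21 CPM, with Mir200a and Mir429 at 0. Skeletal-muscle markers came to 35.5% of the replicate 1 reads and 42.8% of the replicate 2 reads, with none of the 8 genes at 0. Nearly all of that sum was Mir206. Of the 8 tested members 6 were called, against the same 55.7% over all genes. Mir206, Mir208b (260.4 and 495 CPM) and Mir133a-1 (1.19 and 2.84 CPM) were higher in replicate 2. Mir133b (13610 and 10568 CPM), Mir499 (564 and 378 CPM) and Mir1a-2 (4.22 and 1.82 CPM) were higher in replicate 1, as Mir143 was. The Mir1a, Mir133a, Mir133b and Mir199 genes share runs of 20 bases or more with other hairpins. The part of multimapping in their values was not tested. Mir143 alone, at 46403 and 24746 CPM, exceeded the summed endothelial, blood and epithelial markers in each library. The part of cell composition in the levels of Mir143 and Mir145a was not tested, and in bulk RNA fewer cells of a type and less of a miRNA per cell cannot be told apart.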

How the data were processed

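Small RNA libraries of C2C12 myotubes at 72 h were deposited as raw read counts per miRNA gene, which the authors made on mm10 with annotation M21, per the deposited text notes. The counter is not given in the sources used here, nor is the aligner. There are 3 count columns (strand ignored, gene strand, opposite strand). The strand roles were read from the values. The 4 summary lines were left out of totals. In replicates 1 and 2 multimapping reads were 22.0% and 17.9%, unmapped reads 22.7% and 23.1%, and no-feature reads 5.88% and 5.57% of 15349205 and 18450359 reads.

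All 2202 identifiers matched GENCODE M21, the source of names, coordinates and hairpins. CPM used gene-strand reads over all miRNA genes. Library differences were tested over all genes with 10 or more reads (exact two-sided binomial, TMM effective sizes from edgeR 4.0.16 in R 4.3.3, Benjamini-Hochberg, threshold 0.05); with 1 group no quasi-likelihood contrast exists. The test was run on simulated counts first. Python 3.11.15, scipy 1.17.1 and pandas 2.3.3 were used.

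The members, lists and tests were chosen with earlier results of these data known. Named genes were the members, their nearest genes in level (3 on each side), in library ratio (3) and in pair gap (3 on each side), the neighbouring genes on the chromosome, and the 4 most abundant of each smooth-muscle list. Pairs that moved apart, the 4 wider pairs without related hairpins and the marker genes were named outside this rule, after their values were seen. Shared seeds of the members were not looked up, because their mature sequences are not used here. Mir146a was matched as Mir146 through a RefSeq synonym. Alternatives were other scalings (DESeq2 1.42.0 size factors, totals), strands, denominators, filters, pseudocounts and pair definitions, and each library left out.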

Additional observations from a re-analysis of the deposited data

How the results depend on the processing

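With all reads of the tables as the denominator, Mir143 averaged 18076 CPM, Mir145a 1134 CPM and the pair 1.92% of reads. Without Mir206 they averaged 56414 CPM, 3573 CPM and 5.999%. These denominators change the level of every gene by construction. The log2 ratio of Mir143 over Mir145a and both differences between the libraries kept their direction under every alternative run, and both kept their call. Over scalings, strand and filters the library difference ran from 0.85 to 0.91 for Mir143 and from -0.45 to -0.39 for Mir145a (log2, replicate 1 over replicate 2). The number of pairs further apart than Mir143 and Mir145a, 17 of 55, was 11 of 44 with 10 CPM in both libraries and 4 of 30 without related hairpins, where fewer pairs qualify. Without replicate 1 it was 24 of 56 and without replicate 2 it was 16 of 56. Genes called between the libraries numbered 205 to 231, but the number tested changed with the read filter. The calls were 231 of 415 in the main run, 221 of 708 with any read and 205 of 240 with 100 reads or more in total. Mir145b, with no read, gave no library difference under any alternative. No paired analysis was possible because the series has 1 group. The number of libraries, 2, limits every SD. Depth limits the statement on Mir145b and those on list and marker genes with few or no reads.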
